A study of Mus musculus with 2 samples.

Results

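The 8 genes Sox10, Foxd3, Erbb3, Cdh19, S100b, Fabp7, Pmp22 and Mbp, known as genes of Schwann and sustentacular cells, were taken by symbol from the 55536 genes of the tables. They were chosen by name, not by a rule on a measured value. Earlier results of these data were known when they and the other gene lists below were chosen. Total RNA had been sequenced from adrenal glands of male B6CASTF1/J mice aged 2 months, the F1 hybrid of C57BL/6J and CAST, obtained from The Jackson Laboratory, and the labels name no treatment. The 2 libraries, replicates 1 and 2, form 1 group. A directional kit was used on 300 ng of RNA per library after ribosomal RNA reduction, and ERCC spike-ins were added. The sample descriptions number the animals differently, but the library descriptions and the donor field do not, so that the libraries come from separate animals rests on the sample descriptions. With 1 group no condition could be compared, and every ratio below sets 1 library against 1 library and has no replicate check.

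Schwann cells are the neural crest-derived glia of peripheral nerves, either wrapping axons in myelin or ensheathing small axons without it. Sustentacular cells are related glia-like cells that surround the chromaffin cells of the adrenal medulla, and both types keep the transcription factor Sox10 on. The members span the program: the factors Sox10 and Foxd3, the neuregulin receptor Erbb3, the adhesion molecule Cdh19, the calcium-binding protein S100b, the lipid-binding protein Fabp7 and the myelin proteins Pmp22 and Mbp.

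Depth was 36512736 expected counts for replicate 1 and 34454892 for replicate 2. Expected counts are reads shared out among transcripts by the quantifier, and TPM is a level per length, scaled to the same total in each library. Ratios are log2 of replicate 1 over replicate 2 after TMM scaling, with a 95% interval. With 1 library on each side, this interval covers counting error only. The reads carry no molecular identifiers and are not independent molecules, so the interval can be too narrow even for counting error. Ratios were read at a mean of 20 or more counts, which 15660 genes passed. Of these, 50.6% had a ratio above 0 and 3.1% were more than 1.5-fold higher in replicate 1. Markers of the labelled tissue were abundant: 6 steroidogenic cortex genes summed to 12534 and 13682 TPM, and 10 chromaffin genes to 2475 and 2177 TPM. In such bulk tissue, fewer cells of a type and less RNA per cell cannot be told apart.

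All 8 members had counts in both libraries, and 5 of them reached 1 TPM in both. Pmp22 was highest at 28.6 ± 1.46 TPM (SD, n = 2, as for every SD below), followed by S100b at 5.62 ± 2.93 TPM and Mbp at 5.35 ± 0.89 TPM. Cdh19 had 1.15 ± 0.0990 TPM, Erbb3 1.14 ± 0.0354 TPM and Sox10 0.66 ± 0.0707 TPM. Fabp7 at 0.365 ± 0.148 TPM and Foxd3 at 0.225 ± 0.0919 TPM were lowest. In this order the ranges of S100b and Mbp overlapped, as did those of Cdh19 and Erbb3 and those of Fabp7 and Foxd3, so their places are interchangeable within the spread of the libraries. The other neighbours did not overlap. Pmp22 stood above 90.6% of protein-coding genes by mean TPM, S100b above 63.0% and Foxd3 above 36.3%. The 8 genes summed to 46.75 TPM in replicate 1 and 39.43 TPM in replicate 2, of which Pmp22 alone took 63.4% and 69.9%. A second set of deposited tables, read-based rather than alignment-based, gave higher TPM for all 8 genes in both libraries, with sums of 102 and 92.1 TPM.

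**Figure D1:**
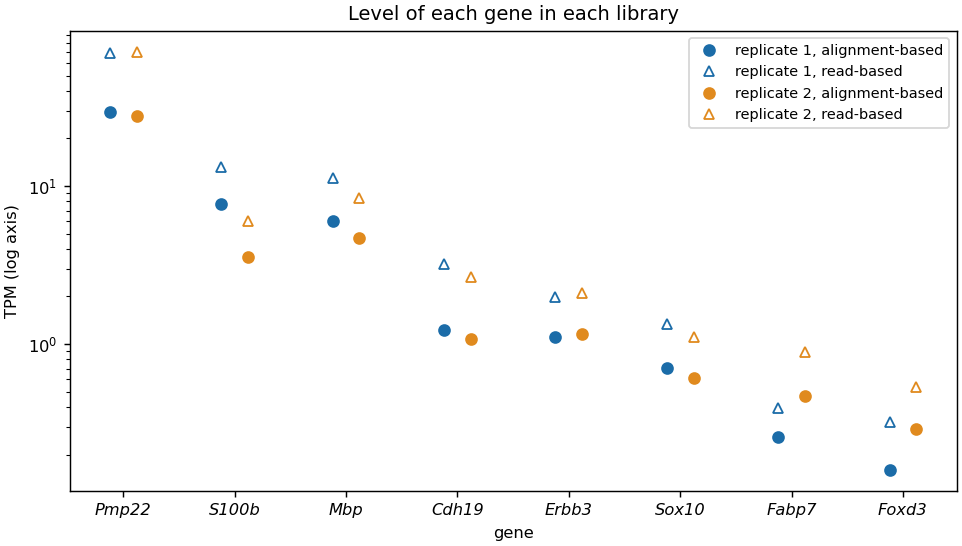
TPM of the 8 members on a log axis, ordered by mean, with replicate 1 and replicate 2 as separate points for the alignment-based and the read-based tables. Pmp22 lies far above the rest in both tables, and S100b shows the widest gap between the libraries among members above 1 TPM, 7.69 against 3.55 TPM.

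Sox10 (ENSMUSG00000033006.10, GRCm38 chr15:79154908-79165240, minus strand), the master regulator of peripheral glia, had 58 counts and 0.71 TPM in replicate 1, against 38 counts and 0.61 TPM in replicate 2. Its log2 ratio was 0.59 (interval -0.01 to 1.23), a 1.51-fold difference that counting error at this depth can span, and it was 0.52 when scaled by total counts, 0.54 with a pseudocount of 5 counts and 0.19 as a ratio of TPM. Foxd3 (ENSMUSG00000067261.4, chr4:99656299-99658622, plus strand), a forkhead factor of the neural crest with a single exon, had 14 and 23 counts, or 0.16 and 0.29 TPM. Its ratio of -0.71 (-1.80 to 0.29) ran the other way but was not distinguishable from 0 at that depth. Of 17 other glial transcription factors and their partners, 12 passed the count minimum. Beside 50.6% of all genes, 10 of these 12 were higher in replicate 1, with a median of 0.16. The counting interval lay above 0 for 6 of them and below it for 1, beside 17.4% and 16.7% of all genes. As a ratio of TPM 7 of the 12 were higher, with a median of 0.08, and total counts gave 9 and 0.08. The most abundant were Id2, an inhibitor of helix-loop-helix factors, at 90.85 and 75.45 TPM, Zeb2 at 46.82 and 44.45 TPM, and Nab1, a partner of EGR factors, at 17.52 and 18.43 TPM. Egr2, the driver of myelination, was scarce, with 27 and 13 counts and a ratio of 1.02 (0.04 to 2.12). Pax3, a factor of early crest cells and immature glia, had 0 counts in both, which allows up to 3 counts per library.

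Erbb3 (ENSMUSG00000018166.8, chr10:128567523-128589652, minus strand), the receptor through which axonal neuregulin acts on Schwann cells, had a ratio close to 0. It had 256 counts and 1.11 TPM in replicate 1 and 248 counts and 1.16 TPM in replicate 2, a ratio of 0.04 (-0.22 to 0.29). The sign of this ratio depends on the scaling, and it was -0.04 when scaled by total counts. Erbb2, the kinase partner that Erbb3 needs for signalling, had 312 and 303 counts, or 1.71 and 1.87 TPM, with a ratio of 0.03 (-0.20 to 0.27). The ligand Nrg1 was also low and similar, with 0.71 and 0.66 TPM and a ratio of -0.12 (-0.64 to 0.40). Of 17 genes of the neuregulin and ErbB pathway, 14 passed the minimum and 9 of these were higher in replicate 1, beside 50.6% of all genes. The pathway median was 0.03, and -0.05 with 6 higher when scaled by total counts. Among them Errfi1, a feedback inhibitor of ErbB kinases, was lower in replicate 1, with 1213 against 1816 counts and a ratio of -0.59 (-0.70 to -0.49). Nrg4, a ligand of Erbb4, was higher, with 791 and 531 counts and a ratio of 0.56 (0.40 to 0.73). Erbb2 and Nrg1 were chosen after their values were seen.

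Cdh19 (ENSMUSG00000047216.8, chr1:110888326-110977584, minus strand), a cadherin typical of Schwann cell precursors and glia, had 151 counts and 1.22 TPM in replicate 1, against 121 counts and 1.08 TPM in replicate 2. The ratio of 0.31 (-0.05 to 0.67) was within counting error. Of 18 other cadherins, 12 passed the minimum and 8 of these were higher in replicate 1, beside 50.6% of all genes. The cadherin median was 0.15, but 0.08 when scaled by total counts, 0.05 as a ratio of TPM and 0.35 with no minimum. The most abundant were Cdh5 of endothelium at 17.28 and 18.25 TPM, Cdh2 at 10.70 and 10.47 TPM and Cdh11 at 5.88 and 6.40 TPM, all above Cdh19.

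S100b (ENSMUSG00000033208.7, chr10:76253853-76261159, plus strand), the calcium-binding protein used to stain Schwann and sustentacular cells, differed most between the libraries. It had 414 counts and 7.69 TPM in replicate 1, against 178 counts and 3.55 TPM in replicate 2. The ratio was 1.21 (0.95 to 1.47), a 2.31-fold difference, and 1.31 in the read-based tables. Among the 4046 genes with counts within 2-fold of S100b, itself included, 1.71% were more than 1.5-fold and 0.297% more than 2-fold higher in replicate 1. Dip2a, which overlaps S100b on the opposite strand, had 1520 and 1495 counts and a ratio of 0.01. The kit is directional, but whether the counting used strand is not given in the sources used here.

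S100b is also known from fat cells, and markers of fat differed between the libraries in the same direction. All 10 white adipocyte genes were higher in replicate 1 (9 when scaled by total counts), beside 50.6% of all genes. The white adipocyte median was 0.50, with sums of 3766 and 2986 TPM. Of 7 brown adipocyte genes, 6 were higher, each by more than 1.5-fold, against 3.1% of all genes. Their median was 1.00, with sums of 1545 and 787 TPM. No gene of either list was at 0. The part of fat in the S100b difference was not tested. Only 33 genes, S100b included, or 0.211% of those at the minimum, had a ratio within 0.1 of that of S100b. Among protein-coding genes averaging at least 100 counts, the 5 with the closest ratio over the 2 libraries were Bcl6 at 1.22, Irs3 at 1.15, Cyp2b10 at 1.15, Ucp1 at 1.15 and Ffar4 at 1.13.

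Fabp7 (ENSMUSG00000019874.11, chr10:57784881-57788450, plus strand), the brain-type fatty acid binding protein of immature glia and satellite cells, was at the edge of detection with 7 and 12 counts, or 0.26 and 0.47 TPM. Its ratio of -0.75 (-2.37 to 0.67) carries no direction.

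Pmp22 (ENSMUSG00000018217.12, chr11:63128982-63159547, plus strand), a membrane protein of compact myelin that many other cell types also make, had 1781 counts and 29.62 TPM in replicate 1 and 1681 counts and 27.55 TPM in replicate 2. The ratio was 0.07 (-0.02 to 0.17), and -7.26e-05 when scaled by total counts, so the libraries did not differ beyond counting error. In its family Emp3 was far higher, at 179.43 and 204.20 TPM, while Emp1 had 12.39 and 9.71 TPM and Emp2 2.47 and 2.28 TPM. The family median was 0.20 over 3 genes and 0.11 as a ratio of TPM. Of these 3 genes, 2 were higher in replicate 1, beside 50.6% of all genes.

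The Pmp22 gene has alternative starts. The upstream start is known for use in myelinating Schwann cells and the next one for use in many tissues. The 4 annotated coding transcripts differ in their first exons but share a coding length of 480 bases and the start codon at position 63133167, so the choice of start leaves the protein the same. The 2 promoter windows below, from RefSeq on GRCm38.p6, are shown because the tables disagree on which start is used. Each runs from 250 bases before the annotated start, which is the single capital letter, 5′ to 3′ on the plus strand. The upstream window is chr11:63128732-63129031, and its start is that of transcript Pmp22-204. The next window is chr11:63131207-63131506, just before the GENCODE start of Pmp22-201 at 63131512.
Pmp22 upstream start: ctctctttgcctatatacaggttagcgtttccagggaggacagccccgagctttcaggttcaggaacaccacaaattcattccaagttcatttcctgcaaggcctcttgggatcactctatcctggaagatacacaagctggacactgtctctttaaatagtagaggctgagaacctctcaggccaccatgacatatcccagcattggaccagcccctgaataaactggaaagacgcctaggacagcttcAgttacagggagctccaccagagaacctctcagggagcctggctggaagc
Pmp22 second start: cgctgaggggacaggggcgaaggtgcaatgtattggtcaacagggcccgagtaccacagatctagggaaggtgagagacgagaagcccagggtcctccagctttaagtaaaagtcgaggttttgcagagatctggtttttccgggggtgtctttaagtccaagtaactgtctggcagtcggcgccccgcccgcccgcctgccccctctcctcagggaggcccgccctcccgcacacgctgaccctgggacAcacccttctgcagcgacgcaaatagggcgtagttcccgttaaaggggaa
The upstream window has a GC content of 50.7% and 3 CpG dinucleotides, and the second 60.0% and 18, against medians of 52.7% and 7 over all 32851 promoter windows. None of the 7 windows found for 4 members (Foxd3, S100b, Fabp7 and Pmp22) held the SOX core letters ACAAAG or ACAATG or the EGR core letters GTGGGCG on either strand. Of all windows, 28.6% held the SOX letters and 7.97% the EGR letters.

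By alignment, Pmp22-201 took 85.9% of the gene's TPM in replicate 1 and 95.6% in replicate 2, 90.8 ± 6.87%. Pmp22-204, from the upstream start, had 0 counts in replicate 1 and 56.1 counts in replicate 2. The read-based tables gave the reverse: Pmp22-204 took 60.8% and 58.0%, 59.4 ± 2.01%, and Pmp22-201 took 4.59% and 12.8%. Pmp22-205, a processed transcript of 388 bases with no coding sequence, took a further 30.2% and 25.7% by reads and 1.11% and 1.09% by alignment. The transcripts that decide this differ by little: 144 of the 1800 bases of Pmp22-201 and 169 of the 1822 bases of Pmp22-204 are in no other annotated transcript of the gene. Which start was used cannot be told from these tables. A leading transcript that differed between the tables was found for 2 of the 5 members with several transcripts, Pmp22 and Sox10, and for 24.1% of 12389 protein-coding genes with 2 or more transcripts. A leading transcript with 50% or more by alignment and under 10% by reads, as for Pmp22, occurred in 3.5% of them.

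**Figure D2:**
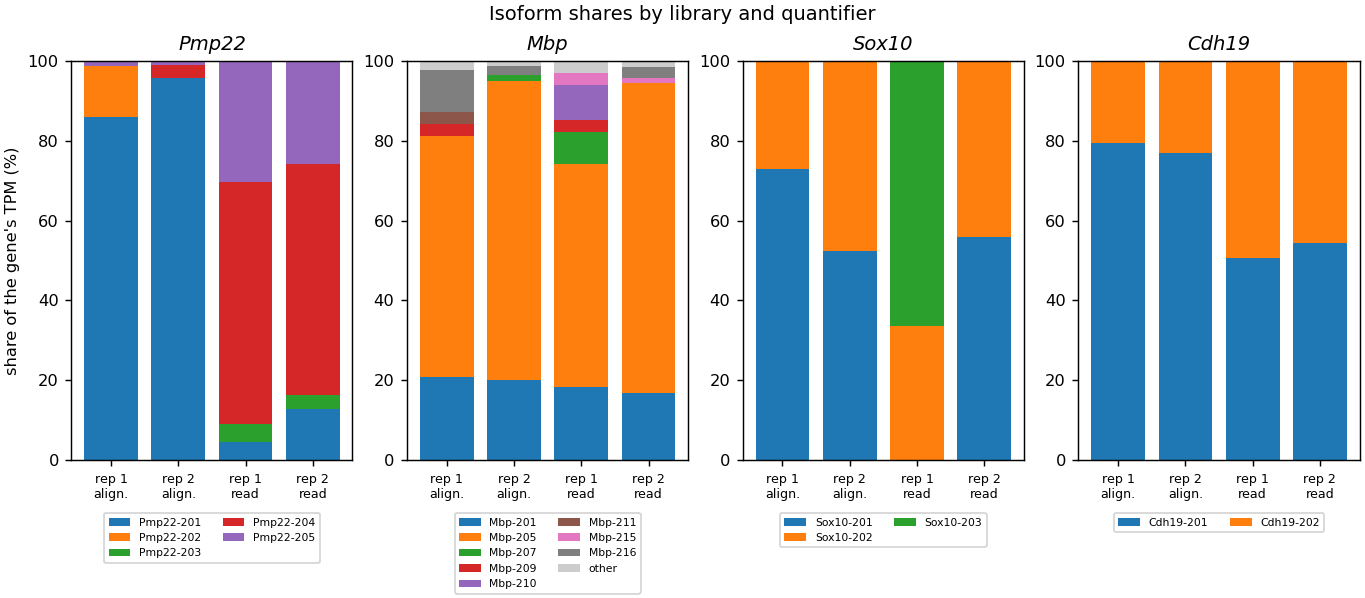
Share of each gene's TPM taken by its annotated transcripts, in percent, for Pmp22, Mbp, Sox10 and Cdh19, by library and by table. The tables place Pmp22 on different transcripts in both libraries, while Mbp-205 leads Mbp in all 4 columns.

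Sox10 was spread over transcripts that could not be separated. By alignment Sox10-201 took 72.9% and 52.5%, 62.7 ± 14.4%, and Sox10-202 the rest. By reads Sox10-203 took 66.5% in replicate 1 and 0 in replicate 2. Sox10-201 and Sox10-202 have 0 bases of their own and Sox10-203 has 67. Sox10-201 and Sox10-203 share their start codon and a coding length of 1398 bases. For Cdh19, the coding transcript Cdh19-201 led in both tables, with 79.5% and 76.9% by alignment and 50.5% and 54.5% by reads, the remainder being a noncoding transcript. Fabp7-201 took 100% of Fabp7, and Foxd3, Erbb3 and S100b have 1 annotated transcript each.

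Mbp (ENSMUSG00000041607.17, chr18:82475146-82585637, plus strand), the cytoplasmic protein that compacts myelin, had 849 counts and 5.98 TPM in replicate 1, against 694 counts and 4.72 TPM in replicate 2. The ratio was 0.28 (0.13 to 0.43), above 0 beyond the counting interval. Most of these counts were assigned by the quantifier to transcripts other than the classical myelin ones. The gene has an upstream start, that of the Golli transcripts also made outside myelin, and starts 79324 bases further on, from which the myelin proteins are made. The 4 transcripts of the upstream start took 83.1% and 96.2% of the TPM of Mbp by alignment and 77.2% and 96.0% by reads. Among them Mbp-201, with 115 and 81.6 counts by alignment, has 0 bases of its own, so these shares rest on the quantifier. The largest, Mbp-205, took 60.5% and 74.9%, 67.7 ± 10.2%, at 3.62 and 3.53 TPM. Of its 4797 bases, 3955 are in no other annotated transcript of the gene. Mbp-205 ends at 82558703, past the first exons of the downstream coding transcripts, which end at 82554750. These bases therefore do not separate Mbp-205 from unspliced RNA of the downstream starts, which total RNA can hold. The part of unspliced RNA was not tested.

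The 12 transcripts of the downstream starts held 66.5 counts in replicate 1 and 8.25 in replicate 2, or 1.01 and 0.18 TPM. Their ratio was 2.93 (1.97 to 4.30) by alignment and 2.18 (1.34 to 3.14) by reads. None of the coding transcripts among them has a base of its own, and the deposited TPM intervals of Mbp-216, which held most of them, overlapped between libraries. Transcripts were therefore also grouped by where they end, a grouping chosen after seeing the data. The 14 transcripts that end in the 3′ exons, which include all the myelin forms and some upstream-start forms, have 2310 bases not found in the others. They held 182 counts and 2.25 TPM in replicate 1, against 89.8 counts and 1.12 TPM in replicate 2, a ratio of 1.00 (0.63 to 1.39) by alignment and 1.09 (0.71 to 1.47) by reads. Their share of the TPM of Mbp was 37.6% and 23.8% by alignment and 41.1% and 20.9% by reads. Mbp-205 and Mbp-208, which end before those exons, held 667 and 604 counts, or 3.73 and 3.59 TPM, a ratio of 0.13 (-0.03 to 0.29). The intervals of these groups did not overlap: the transcripts that reach the 3′ exons differed more between the libraries than those that do not.

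**Figure D3:**
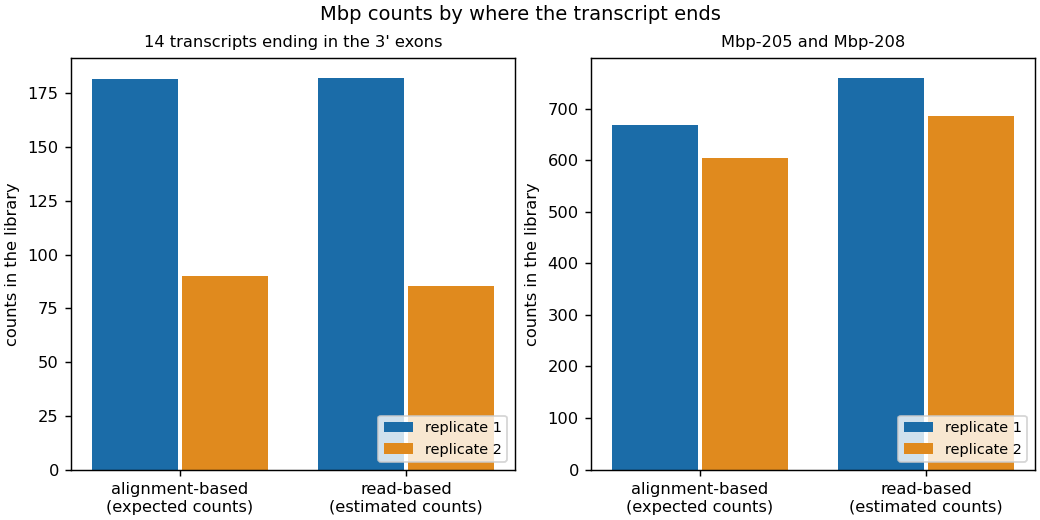
Counts of Mbp transcripts in replicate 1 and replicate 2, for the 14 transcripts ending in the 3′ exons on the left and for Mbp-205 and Mbp-208 on the right, by table; the panels have separate axes that start at 0. The left bars differ by about the same ratio in both tables, 1.00 and 1.09 on the log2 scale, and the right bars by 0.13 and 0.15.

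Of 21 further genes of peripheral myelin, 10 passed the minimum and 8 of these were higher in replicate 1, beside 50.6% of all genes. The myelin median was 0.10. The excess depends on the setting, with 6 higher and a median of 0.03 when scaled by total counts, 5 and 0.06 as a ratio of TPM, and a median of 0.23 with no minimum. The myelin-list genes of highest level, Ndrg1 at 19.90 and 17.84 TPM, Cnp at 16.02 and 19.36 TPM and Mtmr2 at 16.91 and 17.10 TPM, are also made by other cell types. All 18 genes of non-myelinating and satellite glia passed the minimum, and 16 of them were higher in replicate 1, beside the same 50.6%. The median of these 18 genes was 0.19. As a ratio of TPM 13 were higher, with a median of 0.08, and total counts gave 15 and 0.11. The counting interval lay above 0 for 4 of them and below it for 1, beside the same shares of all genes as above. Among them Kcna2, an axonal potassium channel also listed for glia, had 174 and 101 counts and a ratio of 0.77 (0.41 to 1.14). The sustentacular and Schwann markers Ngfr, with 214 and 182 counts, Gfra3, with 72 and 63 counts, and Gfap, with 42 and 32 counts, had ratios of 0.22, 0.18 and 0.38 whose intervals included 0.

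Of the members, 6 of the 8 passed the minimum, and all 6 had a ratio above 0, as did 50.6% of all genes. Scaled by total counts, 4 of the 6 were above 0, since Erbb3 and Pmp22 then fall just below it, and 5 were as a ratio of TPM. The 2 below the minimum, Foxd3 and Fabp7, had ratios below 0. Of the 6, S100b and Mbp were higher in replicate 1 beyond the counting interval, as were 17.4% of all genes, and 0 were lower beyond it, as were 16.7%. S100b and Sox10 were more than 1.5-fold higher, Sox10 barely and no longer under the 3 settings given above, against 3.1% of all genes, and 0 were more than 1.5-fold lower, against 3.33%. The even split of all genes, 486 higher and 521 lower, depends on the scaling, and total counts gave 352 and 683. At the depth of Sox10 the share over 1.5-fold higher was larger, 8.86% of 2754 genes, and 2.03% were over 2-fold. S100b alone was over 2-fold higher, against 0.683%. The median ratio of the 6 was 0.29 (range 0.04 to 1.21), beside 0.003 for all genes, whose central 95% ran from -0.68 to 0.63. Without S100b it was 0.28, and over all 8 members it was 0.18.

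With 2 libraries each of the 8 members has 1 ratio, and these ranged from -0.75 to 1.21. Of the 28 pairs, the counting intervals failed to overlap in 6, and each of the 6 was a pair with S100b, which overlapped only with Sox10. Among the 21 pairs without S100b, 0 failed to overlap. The share of pairs that fail to overlap over all genes was not computed, so the 6 are not read as particular to the members. Overlap of intervals is no test of a difference, and it does not show that the other 7 members vary together.

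**Figure D4:**
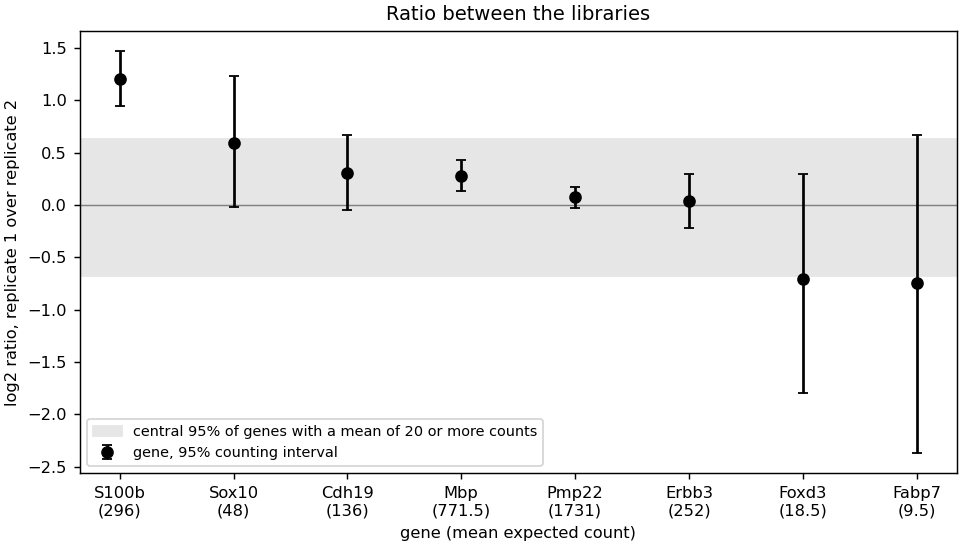
Log2 ratio of replicate 1 over replicate 2 for each member, with its 95% counting interval, over a grey band for the central 95% of all genes at the minimum. S100b at 1.21 lies apart, Mbp at 0.28 is the only other member whose interval excludes 0, and the intervals of Foxd3 and Fabp7 are wide.

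Cells that could add to the members' reads were looked at through marker lists. Beside the counts below, 50.6% of all genes at the minimum had a ratio above 0 under TMM scaling. Chromaffin genes were higher in replicate 1 in 10 of 10 (8 when scaled by total counts), with a median of 0.27 that was 0.17 as a ratio of TPM, and fibroblast genes in 8 of 8, with a median of 0.40. Smooth muscle genes were higher in 5 of 5, with a median of 0.40. Of 11 neuron and axon genes, 9 passed the minimum and 7 of these were higher, with a median of 0.29 that was 0.15 as a ratio of TPM. The neurofilament genes Nefl, with 85 and 51 counts, and Nefm, with 84 and 51 counts, had ratios of 0.72 and 0.70. They were the 2 genes of this list over 1.5-fold higher, against 3.1% of all genes. Those of highest level, Uchl1, Snap25 and Stmn2, had ratios of -0.05, 0.14 and 0.38. By contrast 0 of 6 endothelial genes were higher, with a median of -0.09, as were 0 of 2 lymphocyte genes at the minimum, with a median of -0.10, and 2 of 6 steroidogenic cortex genes, with a median of -0.05. Of 5 macrophage genes 3 were higher, and their median of 0.03 changed sign in 2 of 9 settings. The part of these cells in the members' ratios was not tested.

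Lists of 2 cell types that share Sox10 or Mbp were also read. Of 9 melanocyte genes, Tyr, Mlana and Slc45a2 had 0 counts in both libraries, which allows up to 3 counts per library, and the list summed to 3.96 and 4.66 TPM, mostly from Mitf and Oca2. Of 8 oligodendrocyte genes, Nkx2-2 and Opalin had 0 counts in both, and the list summed to 1.19 and 0.88 TPM. Of these, Myrf alone passed the minimum, with 145 and 119 counts and a ratio of 0.27 that changed sign in 1 of 9 settings.

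**Figure D5:**
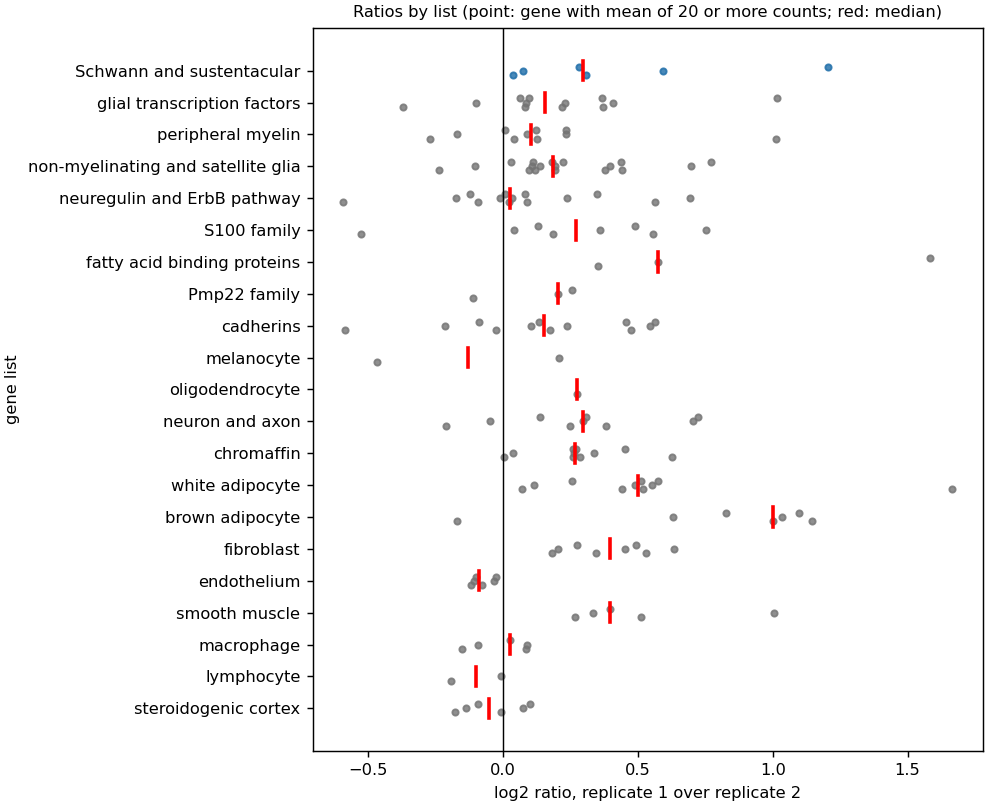
Log2 ratios of replicate 1 over replicate 2 for the genes of each list at the minimum, 1 point a gene, with the list's median. The members' median of 0.29 lies near those of the chromaffin and S100 lists, both at 0.27, and the neuron and axon list at 0.29. The oligodendrocyte median, from 1 gene, is also 0.27. The glial transcription factor, non-myelinating and satellite glia and peripheral myelin lists lie lower, at 0.16, 0.19 and 0.10. The brown adipocyte list lies highest at 1.00.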

How the data were processed

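For genes and transcripts, the authors deposited expected counts, TPM and a TPM interval in alignment-based tables, per the file headers. The read-based tables, as deposited, hold estimated counts with TPM per transcript. The labels give mm10 and the deposited file notes GENCODE M21. The names and versions of the authors' aligner and quantifiers are not given in the sources used here, and whether reads of CAST alleles were assigned equally was not tested.

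Members were matched by symbol. Rows that name no gene (26345, holding 0.904% of counts in replicate 1 and 0.885% in replicate 2) were left out. Expected counts were scaled by TMM (edgeR 4.0.16, 16789 genes), with 0.5 added before the log2 ratio. Intervals are exact Clopper-Pearson intervals of the share of counts in replicate 1. Read-based values were summed per gene. Isoform shares are TPM over the gene's summed TPM. No p-value was computed, since 1 library stands on each side. DESeq2 1.42.0 size factors, total counts, other pseudocounts and minimums and the read-based tables were alternatives, and the procedures were tested on simulated data.

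The members and the 20 other gene lists were chosen with earlier results of these data known. From each list the text may name the 3 genes of highest mean TPM, up to 4 genes more than 1.5-fold apart at the minimum and genes at 0 in both libraries. Ngfr, Gfra3 and Gfap were on the marker list. Values of some single genes of the lists are not reported here. Depth, at 36182740 and 34149995 expected counts over genes, limits Foxd3 and Fabp7 most.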

Additional observations from a re-analysis of the deposited data

How the results depend on the processing

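The summed level of the members, 43.1 TPM, was 96.8 TPM by the read-based tables and 121 TPM when rescaled over protein-coding genes, and 39.43 to 46.75 TPM without either replicate. All 8 single-gene levels also moved with the read-based tables. The median ratio stayed between 0.18 and 0.30 under every setting run. Single ratios near 0 changed sign: Erbb3 was -0.0377 under total counts and -0.0584 as a ratio of TPM, and Pmp22 was -7.26e-05 under total counts. Genes over 1.5-fold apart numbered 1007 (486 higher, 521 lower), 333 (177 and 156) at a mean of 100 or more counts and 8245 (3855 and 4390) with no filter; as a ratio of TPM they were 342 higher and 696 lower. Total counts put the median of all genes at -0.07, against 0.003. The transcripts that lead by alignment took, by reads, 28.0% for Sox10, 52.5% for Cdh19 and 8.67% for Pmp22, against 62.7%, 78.2% and 90.8% by alignment. Leaving out a replicate gave leading shares of 52.5% to 72.9% for Sox10, 76.9% to 79.5% for Cdh19, 85.9% to 95.6% for Pmp22 and 60.5% to 74.9% for Mbp, and leaves no ratio. The cause of these differences was not tested. Scaling by TMM over protein-coding genes and the grouping of Mbp transcripts by their ends were chosen after seeing the data; for the latter, total counts gave 0.93 for the 3′ group and 0.06 for the other. No paired analysis was possible because there is 1 group.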

Other observations

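The families of S100b and Fabp7 held far more abundant members. Of 16 further genes of the S100 list, 8 passed the minimum and 7 of these were higher in replicate 1, beside 50.6% of all genes. The S100 median was 0.27, but 0.20 with 6 higher when scaled by total counts, and 0.19 as a ratio of TPM. S100a1 had 1824 counts and 81.74 TPM in replicate 1, against 1076 counts and 51.60 TPM in replicate 2, a ratio of 0.75 (interval 0.64 to 0.86). S100a11, at 60.86 and 57.09 TPM, and S100a10, at 56.72 and 55.19 TPM, differed less. S100a5 and S100z had 0 counts in both libraries, which allows up to 3 counts per library.

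Of 9 other fatty acid binding proteins, 3 passed the minimum, and all 3 were higher in replicate 1, beside 50.6% of all genes. The median of the 3 was 0.57, and 0.48 as a ratio of TPM. Fabp4 of fat cells had 1490.12 and 1067.56 TPM, Fabp3 of heart and brown fat 43.42 and 15.46 TPM with a ratio of 1.58 (1.42 to 1.75), and Fabp5 10.02 and 8.10 TPM. Fabp6 had 0 counts in both libraries.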
